A study of Mus musculus with 6 samples.

Results

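The microRNAs (miRNAs) described here are the 7 guide arms of the miR-10, miR-99/100 and miR-125 families: miR-10a-5p, miR-10b-5p, miR-99a-5p, miR-99b-5p, miR-100-5p, miR-125a-5p and miR-125b-5p. They were taken by name from the array, which holds 1881 mouse miRNAs, and each was read by 2 probes of 15 spots. The samples were left ventricles of male C57BL/6 mice that received sunitinib, a tyrosine kinase inhibitor used against cancer, or vehicle (control). There were 3 samples in each group, labelled with Cy3 from 200 ng of total RNA and hybridised singly to Agilent arrays. Neither dose, duration nor age is given in the sources used here, and nothing states that each sample is a separate mouse, so p-values measure the spread between these samples, which may be technical. The comparison asks which of these miRNAs differ in the heart under sunitinib.

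A miRNA guides Argonaute to messenger RNAs, mainly by pairing through its seed, bases 2 to 8, and lowers their translation and stability. miR-10, miR-99 and miR-100 belong to one ancient superfamily, while miR-125 is the vertebrate counterpart of lin-4, the first miRNA described in worms. miR-10a and miR-10b lie within Hox gene clusters. The miR-99/100 and miR-125 genes lie with a let-7 gene in polycistronic loci, and miR-99 and miR-100 are known to repress mTOR. In blood vessels miR-10a restrains inflammatory activation of endothelium, and miR-125 members are known to repress endothelin-1 there.

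The mature sequences, from RefSeq (GRCm38.p6, all 7 matched by name), show which members could share targets through the seed, given here in capitals. The prefix mmu, for mouse, is left out elsewhere.

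mmu-miR-10a-5p: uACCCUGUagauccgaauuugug

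mmu-miR-10b-5p: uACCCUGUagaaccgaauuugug

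mmu-miR-99a-5p: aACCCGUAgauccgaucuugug

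mmu-miR-99b-5p: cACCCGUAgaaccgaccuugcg

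mmu-miR-100-5p: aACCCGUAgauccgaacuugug

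mmu-miR-125a-5p: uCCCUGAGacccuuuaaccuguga

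mmu-miR-125b-5p: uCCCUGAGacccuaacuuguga

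The 7 miRNAs fall into 3 seed groups. miR-10a and miR-10b share ACCCUGU, the members miR-99a, miR-99b and miR-100 share ACCCGUA, and miR-125a and miR-125b share CCCUGAG. Outside the seed some paralogs differ by a single base. Counting from 1 at the 5′ end, miR-10a and miR-10b differ by the single substitution U12A, and miR-99a and miR-100 by U16A. miR-99b differs from miR-99a at 4 positions (A1C, U11A, U16C and U21C). miR-125a aligned with miR-125b over 24 columns, of which 21 were identical, 1 was a mismatch and 2 were gaps.

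Each probe was the exact complement of the 3′ part of its own miRNA, and 14 of 14 matched without a mismatch. The brightest probes of the closest pairs are shown 5′ to 3′ with the base that faces the differing position in capitals, because 1 mismatch is all that parts their signals.

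miR-10a-5p probe: cacaaattcggAtctacaggg

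miR-10b-5p probe: cacaaattcggTtctacaggg

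miR-99a-5p probe: cacaagAtcggatctacgg

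miR-100-5p probe: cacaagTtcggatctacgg

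The values of miR-10a against miR-10b and of miR-99a against miR-100 are therefore uncertain to the extent that a labelled miRNA also bound its paralog's probe, which was not tested. miR-99b probes had at least 3 mismatches to any other member and miR-125a and miR-125b probes at least 5 without gaps. Both hairpins, Mir125b-1 and Mir125b-2, give the same miR-125b-5p, so their output is read as a sum.

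All 6 arrays lay on 1 slide, 3 controls and sunitinib replicate 3 in slide row 2 and sunitinib replicates 1 and 2 in slide row 1, and no spot was saturated. Between 234 and 252 miRNAs per array were well above background, and 237 were tested. The 5 cardiomyocyte miRNAs (miR-1a-3p, miR-133a-3p, miR-208a-3p, miR-208b-3p and miR-499-5p) were well above background on all arrays. Neuronal miR-124-3p and miR-9-5p and liver miR-122-5p were so on 0 of 6. Of the myeloid miRNAs, miR-223-3p fell by 1.32 on the log2 scale (limma adjusted p = 0.00086) and miR-142a-3p fell by 0.64 (limma adjusted p = 0.020), and miR-142a-5p was not well above background. None of the 5 cardiomyocyte miRNAs passed, with differences from -0.010 to 0.11 for all but miR-208b-3p. The mean log2 value of miR-208b-3p was higher, at 6.28 in sunitinib against 5.03 in control (limma adjusted p = 0.263). Its groups overlapped, with 4.88, 5.71 and 4.49 in control and 7.05, 5.22 and 6.57 in sunitinib. None of the 2 endothelial, 2 smooth muscle, 3 fibroblast, 2 lymphocyte or 3 erythroid miRNAs passed either, with differences from -0.23 to 0.35. In bulk tissue, fewer cells of a type and less RNA per cell cannot be told apart. The part of the myeloid change in the values below was not tested.

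All 7 miRNAs were well above background on 6 of 6 arrays with both probes. None of the 7 passed an adjusted p of 0.05 in either direction (limma with Benjamini-Hochberg adjustment over 237 miRNAs), where 3.38% of all tested miRNAs did, 1.69% as higher and 1.69% as lower. At an unadjusted p under 0.05 there was 1 of 7, miR-99b-5p, lower, against 19% of all tested in either direction, 10.5% higher and 8.44% lower. The 3 sunitinib arrays lay on one side of the 3 controls for 3 of 7, miR-99a-5p above and miR-99b-5p and miR-125a-5p below, against 27.4% of all tested, 18.1% above and 9.28% below. Of the 7, 3 differences lay below 0 and 4 above, against 47.3% and 52.7% of all tested. The median change of the 7 was 0.0072 on the log2 scale, with a range from -0.23 to 0.19, and that of all 237 was 0.019. Counts out of 7 are too few to set apart from these shares, and what follows gives each difference with its limits. Values are log2 of the scaled spot intensity of a member's brightest probe. They are not compared between miRNAs, because brightness also depends on the probe.

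**Figure D1:**
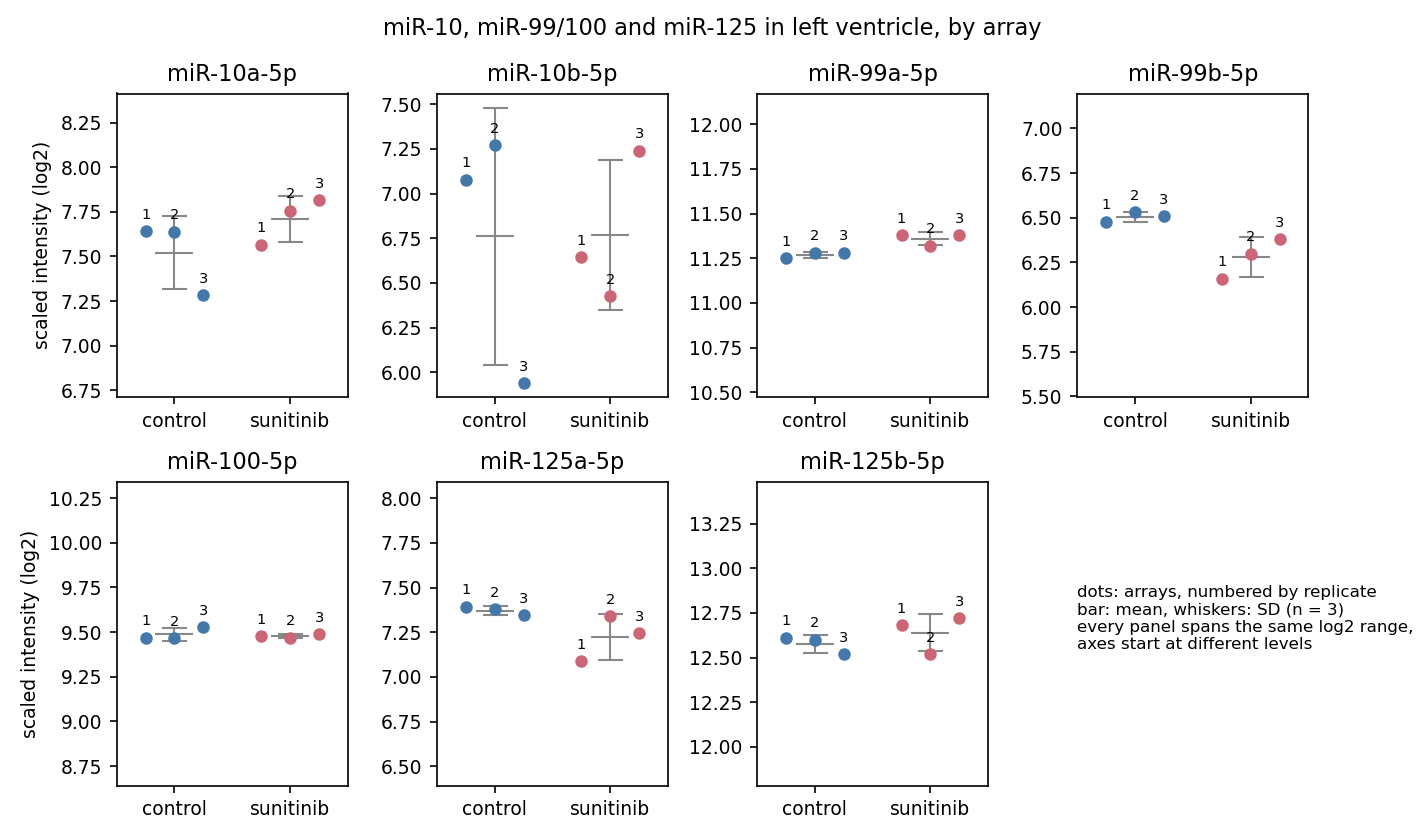
Scaled log2 intensity of each of the 7 miRNAs by array, control in blue and sunitinib in red, with the group mean and SD (n = 3 each) in grey and every axis spanning the same width. miR-99a-5p and miR-100-5p hardly vary within a group, miR-10b-5p spreads from 5.94 to 7.27 within controls alone, and miR-99b-5p lies lower on all 3 sunitinib arrays.

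miR-10a-5p lies within the span of Hoxb3, next to Hoxb4 (RefSeq, GRCm38.p6), and its probe maps to chromosome 11, 96178503 to 96178522 (mm9). It read 7.64, 7.64 and 7.28 in the controls and 7.57, 7.76 and 7.81 under sunitinib, in each case for replicates 1 to 3 in turn. Control replicate 3 was the lowest array, and the groups overlapped because sunitinib replicate 1 lay below the other controls. The mean was 7.52 ± 0.21 (SD, n = 3) without and 7.71 ± 0.13 (SD, n = 3) with the drug. The difference of 0.19 (SE 0.12, 95% confidence interval -0.11 to 0.49) did not pass (limma adjusted p = 0.458). The interval allows from 0.928-fold to 1.40-fold of control. Without control replicate 3 the difference was 0.071.

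miR-10b-5p lies within Hoxd3 and Hoxd4, where its probe spans 74564134 to 74564153 of chromosome 2 (mm9), and is known for promoting cell invasion and vessel growth. It read 7.08, 7.27 and 5.94 in control and 6.64, 6.43 and 7.24 in sunitinib. Control replicate 3 was again the lowest, at a scaled intensity of 61.3 against 135.1 and 154.3 in the other controls. The highest sunitinib array, replicate 3, lay between those 2 controls. The means were 6.76 ± 0.72 and 6.77 ± 0.42 (SD, n = 3 each), a difference of 0.0072 (SE 0.39, limma adjusted p = 0.996). Its 95% confidence interval, from 0.525-fold to 1.92-fold, is the widest of the 7. Without control replicate 3 the difference was -0.40, still not past the threshold (limma adjusted p = 0.529), and without sunitinib replicate 3 it was -0.23. With so small a difference the sign also turned under several other processings.

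The low control array was not a matter of 1 probe. The shorter miR-10b probe read 5.46, 5.69 and 4.23 in control and 4.94, 4.68 and 5.63 in sunitinib, the same order of arrays. The authors' deposited table gave 6.35, 6.53 and 5.17 in control and 5.87, 5.53 and 6.42 in sunitinib, again in that order. The within-group SD of miR-10b, 0.59, ranked 234 of 237 from the lowest, and that of miR-10a, 0.17, ranked 166. miR-10a was the tested miRNA whose pattern over the 6 arrays was most like that of miR-10b, with a root-mean-square difference of 0.38 between mean-centred log2 values, followed by miR-31-5p with 0.41. The median over all others was 0.51, so even the best match followed miR-10b only loosely. For miR-10a the closest were miR-1839-3p (0.125) and miR-423-5p (0.130), and miR-10b ranked 218 of 236.

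**Figure D2:**
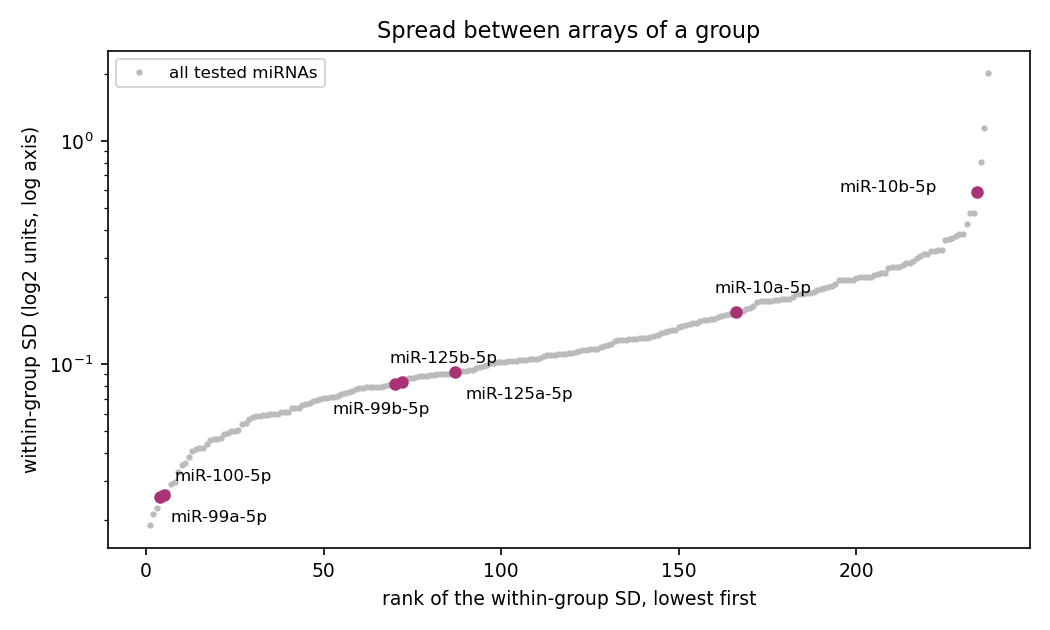
Within-group SD of log2 intensity (pooled over the 2 groups of 3 arrays, log axis) of all 237 tested miRNAs in rank order, with the 7 family members marked. miR-99a-5p and miR-100-5p rank 4 and 5 from the lowest and miR-10b-5p ranks 234.

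In the miR-99/100 family, miR-99a-5p and miR-100-5p were, by their brightest probes, among the least variable of the 237 tested miRNAs. miR-99a-5p, whose probe maps to chromosome 16, 77599189 to 77599206 (mm9), read 11.25, 11.28 and 11.28 in control and 11.38, 11.32 and 11.38 in sunitinib. All 3 sunitinib arrays lay above all 3 controls, by little. The difference was 0.088 (SE 0.055, 95% confidence interval -0.045 to 0.22), or 1.06-fold, and did not pass (limma adjusted p = 0.444). The other probe, 1 base shorter, read 9.67, 9.66 and 9.71 in control and 9.53, 9.52 and 9.78 in sunitinib, a wider spread. Its difference was -0.069 (SE 0.085), so the direction of miR-99a depends on the probe. The authors' deposited table gave -0.033 for its fitted difference.

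miR-100-5p (probe position on mm9: chromosome 9, 41339524 to 41339541) read 9.47, 9.47 and 9.53 in control and 9.48, 9.47 and 9.49 in sunitinib. The 6 arrays were nearly level, with 707 to 738.2 on the linear scale. In the authors' deposited table miR-100 stood at 8.38, 8.36 and 8.38 in control and 8.26, 8.26 and 8.34 in sunitinib, lower without overlap, with a fitted difference of -0.087 (limma adjusted p = 0.470). The difference of -0.0094 (SE 0.055, limma adjusted p = 0.929) had a 95% confidence interval from 0.906-fold to 1.09-fold. The closest values to those of miR-100 were from 2 other steady miRNAs, cardiac miR-499-5p (0.028) and endothelial miR-126a-3p (0.029). Both distances exceeded the SD of miR-100 over the arrays (0.024), so they show level values and no shared pattern. For miR-99a the closest patterns were those of miR-28a-5p (0.026) and let-7f-5p (0.027).

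miR-99b-5p (probe position on mm9: chromosome 17, 17967165 to 17967179) had the lowest difference of the 7 by the brightest probe, whereas miR-125a-5p had it by the other probes and in the authors' deposited table. It read 6.48, 6.53 and 6.51 in control and 6.16, 6.30 and 6.38 in sunitinib. The groups did not overlap, and sunitinib replicate 1 was farthest from the controls. The means were 6.51 ± 0.028 and 6.28 ± 0.11 (SD, n = 3 each). The difference of -0.23 (SE 0.075, 95% confidence interval -0.41 to -0.046), or 1.17-fold lower, ranked 26 of 237 by p and did not pass (limma adjusted p = 0.195). The other probe gave -0.24 (SE 0.070) without overlap, from 5.49, 5.44 and 5.46 in control and 5.17, 5.17 and 5.34 in sunitinib.

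Within slide row 2, where sunitinib replicate 3 lies with the controls, the miR-99b difference was -0.13 from that 1 sunitinib array. The fit with the row as a block gives this same estimate, because row 1 holds no control and adds nothing to the difference. Sunitinib replicates 1 and 2, both in row 1, were the lower ones. The part of the slide row in this difference was not tested beyond these values.

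miR-125a-5p, from the same locus as miR-99b, read 7.39, 7.38 and 7.35 in control and 7.09, 7.34 and 7.25 in sunitinib. All sunitinib arrays were below all controls, but sunitinib replicate 2 only just. The means were 7.37 ± 0.024 and 7.23 ± 0.13 (SD, n = 3 each), a difference of -0.15 (SE 0.080, 95% confidence interval -0.34 to 0.047, limma adjusted p = 0.367). Its other probe gave a difference of -0.29 (SE 0.083, limma adjusted p = 0.127 over probes), from 5.91, 5.92 and 5.89 in control and 5.46, 5.64 and 5.74 in sunitinib. The authors' deposited table held 6.72, 6.66 and 6.67 in control and 6.31, 6.49 and 6.46 in sunitinib, a fitted difference of -0.27 (SE 0.068) that did not pass either (limma adjusted p = 0.076). Without sunitinib replicate 1 the difference was -0.078, and within slide row 2 it was -0.13.

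miR-125b-5p, known from blood cell formation and as a regulator of p53, read 12.61, 12.60 and 12.52 in control and 12.69, 12.52 and 12.72 in sunitinib. The groups overlapped, since sunitinib replicate 2 lay at the level of the lowest control. The difference was 0.067 (SE 0.076, limma adjusted p = 0.681), with a 95% confidence interval from 0.923-fold to 1.19-fold. Its other probe gave -0.065 (SE 0.090), so no direction held over both probes. The closest patterns were those of miR-31-5p and miR-20b-5p (0.030 each).

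**Figure D3:**
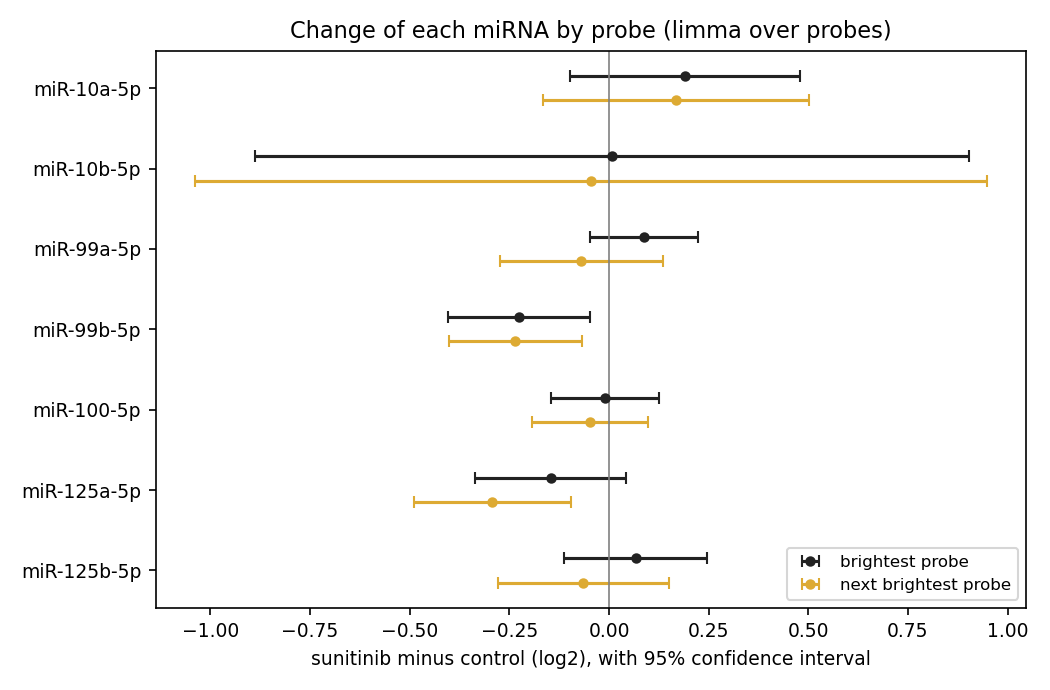
Sunitinib minus control (log2) for the brightest and the next brightest probe of each miRNA, with 95% confidence intervals from limma over all probes well above background on 6 arrays. Both probes of miR-99b-5p, of miR-125a-5p and, by little, of miR-100-5p (-0.0094 and -0.048) lie below 0. Both of miR-10a-5p lie above 0, whereas the probes of miR-99a-5p, miR-125b-5p and miR-10b-5p lie on opposite sides of 0.

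**Figure D4:**
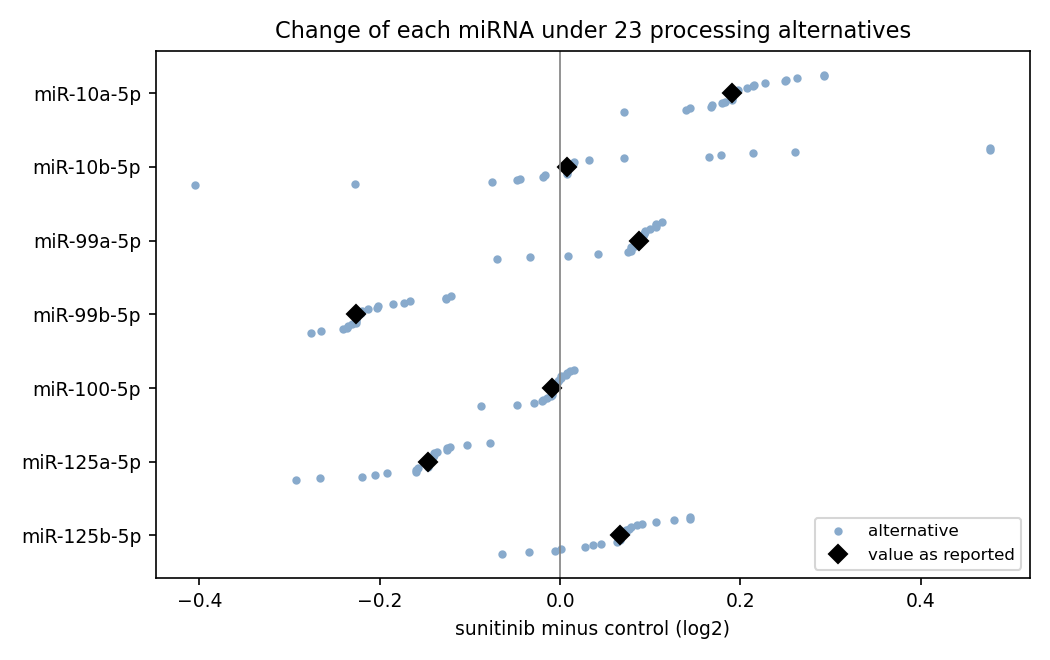
Sunitinib minus control (log2) of each miRNA as reported (black) and under 23 other processings or left-out samples (blue), spread vertically only for legibility. miR-99b-5p and miR-125a-5p stay below 0 and miR-10a-5p stays above 0, whereas miR-10b-5p runs from -0.40 to 0.48. Some alternatives leave the difference itself unchanged.

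The brighter, longer probe of each member stood farther above the shorter one in sunitinib than in control for 7 of 7 members by the group means, with shifts from 0.0086 (miR-99b-5p) to 0.16. The groups overlapped for all but miR-125a-5p. The largest shift was in miR-99a-5p, where the gap in log2 intensity was 1.59, 1.62 and 1.57 in control and 1.85, 1.80 and 1.60 in sunitinib. The gap of miR-125a-5p was 1.48, 1.46 and 1.46 in control and 1.62, 1.70 and 1.51 in sunitinib. Sunitinib replicate 3, which shares the slide row of the controls, stayed nearest to them in both. Over the 165 miRNAs with 2 such probes, the gap was larger in sunitinib for 65.5%, with medians relative to the control mean of 0.039 and 0.056 in sunitinib replicates 1 and 2 and 0.0074 in replicate 3. The shift of the gap was larger than the size of the difference between groups for miR-99a-5p (0.16), miR-125b-5p (0.13), miR-10b-5p (0.052) and miR-100-5p (0.038), and about equal to it for miR-125a-5p (0.15). What the shift comes from was not tested.

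Paralogs with one seed could shift against each other even where none passes alone. The within-array log2 ratio was therefore compared for 5 paralog pairs and 3 pairs of genomic neighbours, with exact two-sided permutation tests adjusted over the 8 pairs. With 3 against 3 samples the smallest p is 0.1, so no pair could pass, and a p of 0.1 says only that the groups did not overlap. The ratio of miR-99a to miR-99b was 4.78, 4.75 and 4.77 in control and 5.22, 5.02 and 5.0 in sunitinib, all sunitinib arrays above all controls. Its difference of 0.31 (SE 0.071, exact p = 0.1, adjusted p = 0.267) was 0.17 with the other probes (exact p = 0.1). miR-99b over miR-100 differed by -0.22 (SE 0.067, exact p = 0.1) and by -0.19 with the other probes.

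The ratio of miR-99a to miR-100, the pair that differs by 1 base, was 0.097 higher in sunitinib (SE 0.024, exact p = 0.1) but -0.022 with the other probes (exact p = 0.8). miR-125a over miR-125b differed by -0.21 (SE 0.13, exact p = 0.3), and miR-10a over miR-10b by 0.18 (SE 0.37, exact p = 0.7). Among genomic neighbours, miR-99a over miR-125b differed by 0.021 (SE 0.056), miR-99b over miR-125a by -0.080 (SE 0.057) and miR-100 over miR-125b by -0.076 (SE 0.075), all with overlapping groups. With the other probes all 3 changed sign, to -0.0050, 0.058 and 0.017.

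By genomic position (RefSeq, GRCm38.p6), Mir99b and Mir125a lie within Spaca6 on chromosome 17 with Mirlet7e between them. Mir100 and Mir125b-1 lie within Mir100hg on chromosome 9 with Mirlet7a-2, and Mir99a, Mirlet7c-1 and Mir125b-2 are adjacent on chromosome 16. miR-99b and miR-125a, from the chromosome 17 locus, were near each other in pattern. They parted on sunitinib replicate 2, at -0.21 and -0.030 from their control means. miR-125a ranked 3 of 236 by likeness to miR-99b and miR-99b ranked 4 for miR-125a (root-mean-square difference 0.070). miR-425-5p was the closest to both, with 0.052 and 0.048. miR-690 (0.069) came second for miR-99b and miR-181b-5p (0.064) for miR-125a. Between miR-99a and miR-125b the root-mean-square difference was smaller (0.057), with ranks of 28 and 12. All these ranks describe 6 arrays that share a slide, and they include the difference between groups.

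The let-7 neighbours repress growth and developmental regulators. let-7e-5p, encoded between miR-99b and miR-125a, read 9.14, 9.29 and 9.09 in control and 9.15, 9.21 and 9.08 in sunitinib. Its groups overlapped, with a difference of -0.025 (SE 0.079, limma adjusted p = 0.882). let-7c-5p, encoded beside miR-99a and by another gene, was 0.098 higher (SE 0.059, limma adjusted p = 0.420), and let-7a-5p, which another gene also encodes, was 0.11 higher (SE 0.057, limma adjusted p = 0.330), each without overlap of the groups. Their other probes gave -0.13 for let-7e (SE 0.079), 0.021 for let-7c and 0.071 for let-7a. Of 3 tested let-7 neighbours, 0 passed in either direction (unadjusted limma p from 0.092 to 0.763, so 0 also passed without adjustment).

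**Figure D5:**
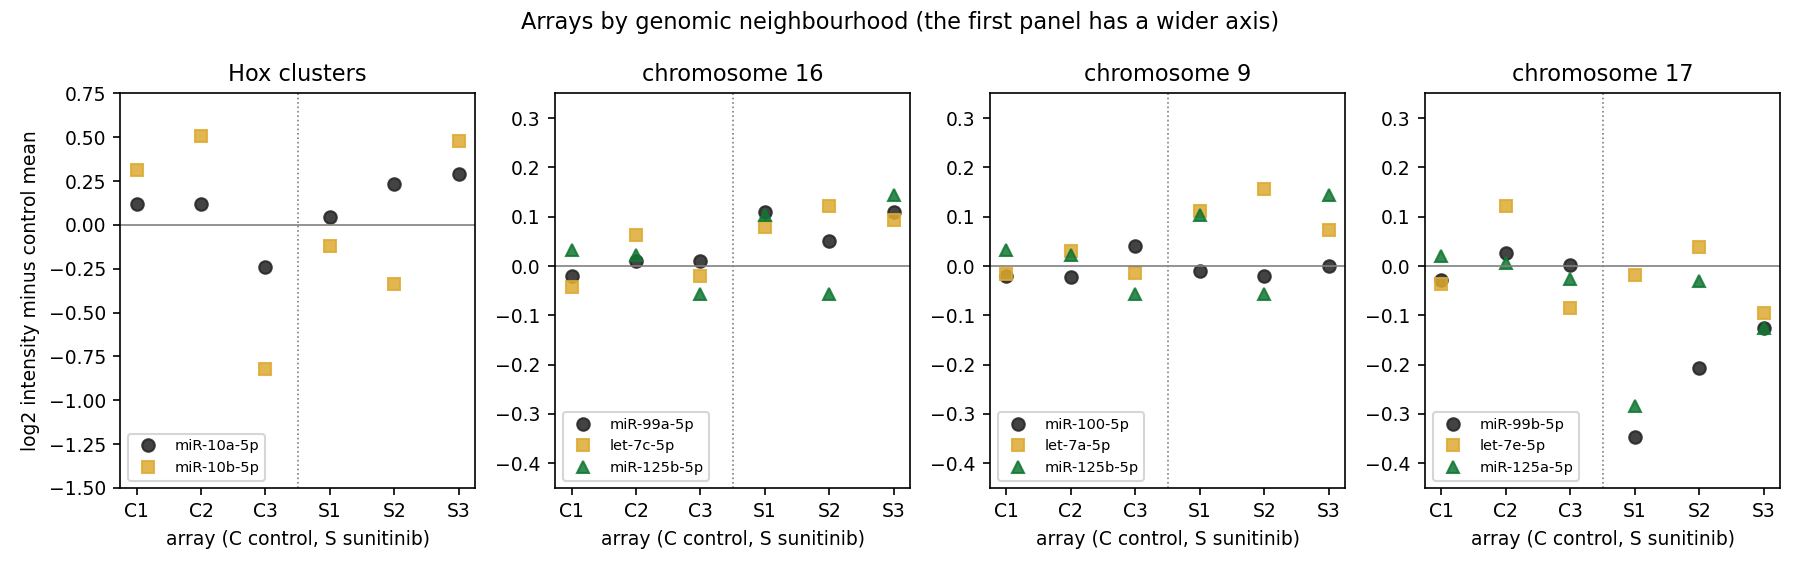
Log2 intensity of each array minus the control mean, grouped by genomic neighbourhood (C control, S sunitinib, numbered by replicate; the first panel has a wider axis). miR-99b-5p and miR-125a-5p lie below 0 on the 3 sunitinib arrays, although miR-125a-5p is only at -0.030 on sunitinib replicate 2. let-7e-5p, encoded between them, has a mean difference of -0.025 by the probe shown and -0.13 by its other probe.

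The opposite (3p) arms of the hairpins, which are normally degraded, did not reach the call of well above background. All 8, from miR-10a-3p to miR-125b-2-3p, were well above background on 0 of 6 arrays, so no difference was tested, as for let-7a-2-3p and let-7e-3p. let-7c-1-3p was so on 1 of 6. Of the other miRNAs on the array with a sequence in RefSeq (1608 in all with the members), 3 carried a member's seed, and all had CCCUGAG of the miR-125 group. They were miR-351-5p, miR-6367 and miR-6394, and each was well above background on 0 of 6 arrays. Among the array's miRNAs with a known sequence, the miR-125 seed was thus measured in this tissue through miR-125a and miR-125b only.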

How the data were processed

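The deposited scanner output holds linear intensity per spot, background-subtracted and detrended by Agilent Feature Extraction 10.7.1.1 on genome build mm9, per the file headers (version 10.7 per the submitters' processing notes). The deposited value table gives log2 values of the same arrays from the authors' own processing, with centring and probe summary unstated; its differences between arrays correlated best with each column's own scanner file (r from 0.919 to 0.954 across miRNAs). It served as an alternative only. Control spots and outlier-flagged spots were left out. Intensities were scaled to the 75th percentile over 393 probes well above background on all arrays, floored at 1, taken to log2 and averaged over spots, and the brightest probe stood for its miRNA. A probe was well above background where at least 50% of its spots were, by the scanner's own call. miRNAs that reached this in all 3 samples of either group were fitted with limma 3.58.1 (R 4.3.3) and adjusted over all 237 tested. The fit was also run on simulated arrays. These had independent noise for each miRNA and no slide row, so they say nothing about row effects. The rule for named miRNAs takes the 7 members, their 3p arms, let-7 neighbours, miRNAs of the same seed, and for each member the 2 closest patterns; cell type miRNAs were listed for the tissue check. The members and lists were chosen with earlier results of these data known. Alternatives changed the scaling, background correction, choice of probe, floor, filter, weights, variance model and blocks, or left out a sample. The number of arrays limits the precision.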

Additional observations from a re-analysis of the deposited data

How the results depend on the processing

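None of the 7 miRNAs passed an adjusted p of 0.05 under any of 23 alternatives (limma; 0 higher and 0 lower in each, also without any 1 sample). miR-10a-5p stayed higher (0.071 to 0.29) and miR-99b-5p and miR-125a-5p stayed lower (-0.28 to -0.12 and -0.29 to -0.078) throughout, with limma adjusted p from 0.065 to 0.833 for miR-99b and from 0.076 to 0.934 for miR-125a. The other 4 members changed sign somewhere, and the cause was not tested. Changes of filter, floor or variance trend and the replicate block left every member's difference as it was, so they are no checks of direction. The slide row as a block and that row alone gave the same differences as each other. With normexp correction miR-10b was at -0.017. With the percentile over all probes miR-100 was at 0.015. Quantile normalization gave -0.047 for miR-10b, 0.0079 for miR-100 and -0.0057 for miR-125b. The mean of all probes gave -0.019 for miR-10b, and the summed signal 0.0069 for miR-100. The deposited table gave -0.076 for miR-10b, -0.033 for miR-99a and -0.035 for miR-125b. The next probe gave -0.045 for miR-10b, -0.069 for miR-99a and -0.065 for miR-125b. The slide row, as a block or alone, gave 0.0011 for miR-100. Without 1 sample, miR-10b ran from -0.40 (without control replicate 3) to 0.26 and miR-100 from -0.020 to 0.011. The ratio of miR-10a to miR-10b then ran from -0.012 to 0.48 and that of miR-99a to miR-125b from -0.020 to 0.055, and the other 6 ratios kept their sign without any 1 sample. With the other probes, 4 of the 8 ratios turned sign (miR-99a to miR-100 at -0.022 and the 3 neighbour pairs), as did miR-99b to miR-125a in the deposited table (0.082).

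Over all tested miRNAs, 4 passed as higher and 4 as lower. The counts (higher, lower) were 2 and 2 with normexp, 0 and 4 with quantile normalization, 1 and 3 unscaled, 4 and 7 with the mean of probes, 1 and 1 with the summed signal, 0 and 3 unfiltered, 6 and 7 with array weights, 0 and 1 blocked on slide row, 1 and 3 within row 2, and 0 to 5 and 2 to 3 without 1 sample. Control and sunitinib samples of one replicate number deviated together with r of 0.18, 0.22 and -0.055. For samples of different numbers r ran from -0.31 to 0.25. The labels do not state whether samples of one number were paired, and these values cannot tell. With the replicate block 0 were higher and 2 lower, 0 of them among the 7.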
